A study of Mus musculus with 8 samples.

Results

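The Leydig cell steroid hormone synthesis genes are 10 genes chosen by their symbols: Lhcgr, Star, Cyp11a1, Fdx1, Fdxr, Hsd3b1, Hsd3b6, Cyp17a1, Hsd17b3 and Insl3. All 10 were present among the 17121 genes of the deposited table, and all 10 passed the filter on low values that left 17066 genes to be tested. The table holds RNA-seq values of mouse testis from 4 libraries labelled CTL and 4 labelled N6amt1-SKO, called SKO libraries here. The labels name no strain, age, promoter or Cre driver, do not spell out SKO, and do not say whether the libraries came from separate animals, so each p-value is set against the spread of these libraries alone. N6amt1 encodes a protein methyltransferase first named after DNA methylation, and the study asked what its loss does to spermatogenesis; the steroid genes of the testis bear on the hormonal side of that question.

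Leydig cells lie between the seminiferous tubules and make the testosterone that spermatogenesis needs. Luteinising hormone binds its receptor LHCGR on these cells and raises cyclic AMP, STAR then brings cholesterol to the inner mitochondrial membrane, and CYP11A1 cleaves its side chain there with electrons handed on by FDXR and FDX1. HSD3B enzymes, CYP17A1 and HSD17B3 carry pregnenolone on to testosterone, while INSL3, a peptide hormone of the same cells, acts in testis descent and is a measure of Leydig cell maturity.

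The targeted gene came first as a check of the labels. On the normalised scale explained below, CTL 1 to 4 held 475, 433, 629 and 514 of N6amt1, and SKO 1 to 4 held 586, 557, 561 and 625. The groups overlapped, and the fitted log2 difference was 0.19 (SE 0.17, limma adjusted p = 0.437). The value of the whole gene cannot show the loss of a single exon or loss in 1 cell type, and the deleted part is not named in the labels, so the groups below stand as labelled.

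Each deposited value is a rounded, rescaled read count, with a separate factor for every library, and was here further scaled by trimmed means of log ratios (TMM). Tests were run with limma on log2(value + 5), so fold changes understate the change of low genes. Column totals lay between 94.2 M and 103 M. In 6 libraries the factor could be read from the gaps between low values, which gave 70.1 M reads for CTL 3, 57.4 M for CTL 4 and 40.6 M to 65.6 M for the SKO libraries. CTL 1 and CTL 2 left no such gaps, as a factor of about 1 or less would. Their exact depth is unknown, but on that reading both held more reads than any other library. The share of 18S ribosomal RNA was 0.173% to 0.273% in 5 libraries and 0.721% to 0.969% in CTL 3, CTL 4 and SKO 4. Since the set of higher share has a single SKO library, differences of genes within it are given as values with no test. Counts of called genes from that set are listed with the other settings but are not read as a result. The set of lower share holds SKO 1 to 3 against CTL 1 and CTL 2, whose factors could not be read. Within that set, the group and this difference between the libraries cannot be told apart. The share of mitochondrially encoded transcripts was 1.13% to 1.99% in CTL and 2.11% to 4.53% in SKO libraries, highest in SKO 4. Results that depend on these libraries are given with and without them.

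Among the 10 genes, Hsd3b1 and Fdxr were higher in SKO libraries and the other 8 did not pass the test. The 2 genes that rose of 10 stand beside 11.9% of all tested genes that rose at adjusted p below 0.05. No member fell by limma at that threshold, beside 7.93% of all tested genes. At an unadjusted limma p below 0.05, Cyp17a1 (0.0172) and Hsd17b3 (0.0320) were also lower and Lhcgr (0.0402) was higher. The share of all genes at that unadjusted threshold was not computed, so these values are not read as a result about the members. In 2 of the 10 genes the SKO and CTL values did not overlap, against 26.1% of all tested genes. The median log2 difference of the 10 was 0.06, close to the 0.04 of all tested genes. Of all called genes 60.1% had risen, a share that was 49.2% with median-ratio factors and 91.5% with library totals as the scaling, where the median of all genes was 0.33. In whole testis RNA, a change in the number of Leydig cells and a change in RNA per cell cannot be told apart.

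Hsd3b1 and Hsd3b6, the pair of 3β-hydroxysteroid dehydrogenase paralogs among the members, lie close together on chromosome 3. Hsd3b1 passed the test and Hsd3b6 did not, which does not show that they differ: their ratio within a library, 2.96, 1.29, 0.800 and 1.33 in CTL and 4.21, 1.84, 4.04 and 7.82 in SKO libraries, overlapped between the groups. The sequences before their starts are shown for comparison. On GRCm38, GENCODE M21 places Hsd3b1 (ENSMUSG00000027871.16) at chr3:98852194-98859794 and Hsd3b6 (ENSMUSG00000027869.14) at chr3:98805504-98814443, both on the minus strand. The 250 bases before each start are from RefSeq's GRCm38.p6 promoter table, chr3:98859795-98860044 for Hsd3b1 and chr3:98814444-98814693 for Hsd3b6, written 5′ to 3′ on the minus strand, with capitals marking AGATAA, the letters of a GATA factor motif, on either strand.
Hsd3b1: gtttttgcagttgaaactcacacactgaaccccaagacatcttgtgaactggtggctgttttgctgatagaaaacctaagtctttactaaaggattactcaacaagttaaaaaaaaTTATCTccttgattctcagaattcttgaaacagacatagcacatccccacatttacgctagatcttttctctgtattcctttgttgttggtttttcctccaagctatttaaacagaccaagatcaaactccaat
Hsd3b6: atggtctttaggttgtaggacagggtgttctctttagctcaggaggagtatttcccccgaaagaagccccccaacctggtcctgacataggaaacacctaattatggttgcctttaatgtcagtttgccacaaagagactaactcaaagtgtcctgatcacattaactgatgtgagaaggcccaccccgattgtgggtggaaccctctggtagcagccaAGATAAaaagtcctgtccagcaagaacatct
The match begins 134 bases before the start of Hsd3b1, on the opposite strand, and 31 bases before the start of Hsd3b6, on the gene's own strand. AGATAA was found on either strand in 9.99% of the 32851 windows of this length in the table. AGGTCA, the half-site of nuclear receptors such as NR5A1, stood in neither window, and in 14.0% of all windows. These matches describe letters only and were not tied to any binding.

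The levels of the genes in CTL libraries were compared per kilobase of annotated exon, where the median of 16419 genes with a length was 439. Cyp17a1 was the highest member at 7035 ± 2136 per kilobase (SD, n = 4). Hsd3b1 at 3522 ± 527, Hsd3b6 at 2687 ± 939 and Cyp11a1 at 2474 ± 493 followed, and each lay within the spread of its neighbour in this order. Fdx1 was at 1484 ± 319, Fdxr at 1051 ± 205 and Star at 820 ± 238. Hsd17b3, the enzyme of the last step, was far lower at 346 ± 127, near Lhcgr at 244 ± 70.3, and Insl3 was the lowest at 140 ± 92.3. The place of Insl3 may not give its level, because 64.8% of its exon bases overlap Jak3, as described below. In SKO libraries the order changed at the top: Hsd3b1 was at 7199 ± 668 per kilobase and Cyp17a1 at 3841 ± 2040.

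Lhcgr (ENSMUSG00000024107.7, chr17:88716481-88791990, minus strand, from GENCODE M21 on GRCm38 as for each gene below) encodes the receptor through which the pituitary drives the pathway. CTL 1 to 4 measured 1544, 1509, 1754 and 2655 (normalised values, as for each gene below), and SKO 1 to 4 measured 2373, 5375, 2696 and 2215. CTL 4 lay within the SKO range and SKO 2 stood far above every other library. The log2 difference was 0.70 (SE 0.30, limma adjusted p = 0.117), with means of 1866 ± 537 and 3165 ± 1487 (SD, n = 4 each). Without SKO 2 it was 0.41 (limma adjusted p = 0.241). The difference was 1.09 among the 5 libraries of lower 18S share, whose CTL libraries are CTL 1 and CTL 2 (limma adjusted p = 0.0465). Among the 3 libraries of higher share it was 0.05.

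Star (ENSMUSG00000031574.8, chr8:25806555-25815982, plus strand) encodes the carrier that delivers cholesterol to CYP11A1, the step that luteinising hormone controls most quickly. It measured 3266, 2367, 3141 and 4713 in CTL and 3190, 3827, 2665 and 2286 in SKO libraries. Highest and lowest values came from CTL 4 and SKO 4, and the other 6 libraries were mixed between the groups. The means were 3372 ± 979 and 2992 ± 669, a log2 difference of -0.16 (SE 0.23, limma adjusted p = 0.668). Its sign was positive under library totals as the scaling (0.14) and within the libraries of lower 18S share (0.20).

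Cyp11a1 (ENSMUSG00000032323.13, chr9:58006411-58027023, plus strand), the gene of the side-chain cleavage enzyme that makes pregnenolone, was among the most abundant members by value. CTL libraries held 12038, 14879, 11503 and 9112, and SKO libraries held 11958, 22451, 9344 and 8817. SKO 2 was the highest of the 8, and the other 3 SKO libraries lay within or just below the CTL range. The fitted log2 difference was 0.06 (SE 0.29, limma adjusted p = 0.907), and it was -0.23 without SKO 2.

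The electron chain of the mitochondrial P450 enzymes showed unequal values for its 2 proteins. Fdxr (ENSMUSG00000018861.8, chr11:115268024-115277050, minus strand), whose flavoprotein takes electrons from NADPH, measured 3384, 3299, 2991 and 2123 in CTL and 5092, 4572, 5238 and 3864 in SKO libraries. Every SKO library lay above every CTL library. Fdxr rose by 0.68 on the log2 scale, or 1.60-fold (SE 0.18, limma adjusted p = 0.0301), from 2949 ± 576 to 4691 ± 621. The call was lost without CTL 3 (limma adjusted p = 0.074), without SKO 1 (0.079), without SKO 2 (0.069) and without SKO 3 (0.097). Within the libraries of lower 18S share the difference was 0.57, and within those of higher share 0.62.

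Fdx1 (ENSMUSG00000032051.9, chr9:51943306-51963556, minus strand) encodes the iron-sulphur protein that carries those electrons from FDXR to CYP11A1. It measured 5847, 4632, 4514 and 3429 in CTL and 5812, 5107, 4582 and 3647 in SKO libraries. The groups covered nearly the same range. Its log2 difference was 0.06 (SE 0.20, limma adjusted p = 0.859), and its sign was not the same under every scaling (-0.0060 with median-ratio factors).

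Hsd3b1 encodes a 3β-hydroxysteroid dehydrogenase that turns pregnenolone into progesterone and is also used outside the testis in other steroid-making cells. The CTL libraries measured 7366, 6438, 5191 and 7138, and the SKO libraries 13479, 13594, 14668 and 11678. The lowest SKO library lay well above the highest CTL library, and within each group the values were closer together, relative to their mean, than for any other member. Hsd3b1 rose by 1.04 on the log2 scale, or 2.05-fold (SE 0.15, limma adjusted p = 0.0123), from 6533 ± 978 to 13355 ± 1239. The log2 difference was 1.01 within the libraries of lower 18S share and 0.95 within those of higher share. Over 22 other settings it ranged from 0.88 to 1.33 and passed in 20; without SKO 3, where limma called no gene of the whole table (4784 had an unadjusted p below 0.05), its adjusted p was 0.057. The remaining setting was that of the 3 libraries of higher 18S share, where 1 SKO library gives no usable test.

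Hsd3b6 encodes the 3β-hydroxysteroid dehydrogenase typical of adult Leydig cells. It measured 2487, 5003, 6492 and 5385 in CTL and 3205, 7373, 3631 and 1494 in SKO libraries. SKO 2 was the highest library and SKO 4 the lowest, a 4.93-fold span within 1 group. The log2 difference was -0.44 (SE 0.45, limma adjusted p = 0.518). It was 0.32 among the libraries of lower 18S share, and -1.97 among those of higher share, where SKO 4, the lowest library, is the single SKO library. Of the 50-base stretches in Hsd3b6 exons, 15.7% also occur in other annotated genes, mostly Hsd3b2 and Hsd3b3, while only 2.11% occur in Hsd3b1. Hsd3b2 and Hsd3b3 were not among the tested genes.

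Cyp17a1 (ENSMUSG00000003555.8, chr19:46667165-46673172, minus strand) encodes the enzyme that makes the androgen precursors by hydroxylase and lyase steps. It measured 15129, 15994, 28043 and 18752 in CTL and 10283, 18700, 7420 and 6135 in SKO libraries. SKO 1, 3 and 4 lay below every CTL library, and SKO 2 lay among them. The means were 19479 ± 5914 and 10635 ± 5649, and the log2 difference of -0.96 (SE 0.34) did not pass after adjustment (limma adjusted p = 0.0686). Without SKO 2 it was -1.28 (limma adjusted p = 0.0396), and without CTL 1 and CTL 2, whose factors could not be read, it was -1.29 (limma adjusted p = 0.0355). Within the libraries of lower 18S share it was -0.47 (limma adjusted p = 0.307), and it was -1.89 for SKO 4 alone against CTL 3 and CTL 4.

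Hsd17b3 (ENSMUSG00000033122.14, chr13:64058266-64089230, minus strand) encodes the enzyme that reduces androstenedione to testosterone. Its values were 223, 517, 608 and 579 in CTL and 230, 347, 236 and 79.3 in SKO libraries. CTL 1 was as low as the SKO libraries and the other 3 CTL libraries lay above all of them. The log2 difference was -1.17 (SE 0.47, limma adjusted p = 0.101), with means of 482 ± 177 and 223 ± 110. Without CTL 1 it was -1.55 (limma adjusted p = 0.0425), and it was -0.35 within the libraries of lower 18S share and -2.81 for SKO 4 alone against CTL 3 and CTL 4. The counts behind it were small in SKO 4, where the value corresponded to 34 reads, against 353 in CTL 3 and 284 in CTL 4.

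Insl3 (ENSMUSG00000079019.2, chr8:71689214-71690575, plus strand) had the lowest values of the 10, which were 64.0, 125, 17.6 and 143 in CTL and 109, 85.1, 102 and 79.3 in SKO libraries. The CTL libraries spanned 8.11-fold and enclosed all SKO values, and the CTL 3 value corresponded to 10 reads. The log2 difference was 0.41 (SE 0.55, limma adjusted p = 0.636), and it was -0.22 without CTL 3. In GENCODE M21, 64.8% of the exon bases of Insl3 lie within transcripts of Jak3 on the same strand, and no source used here says how reads in such overlaps were assigned, so these values may not give the level of Insl3.

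**Figure D1:**
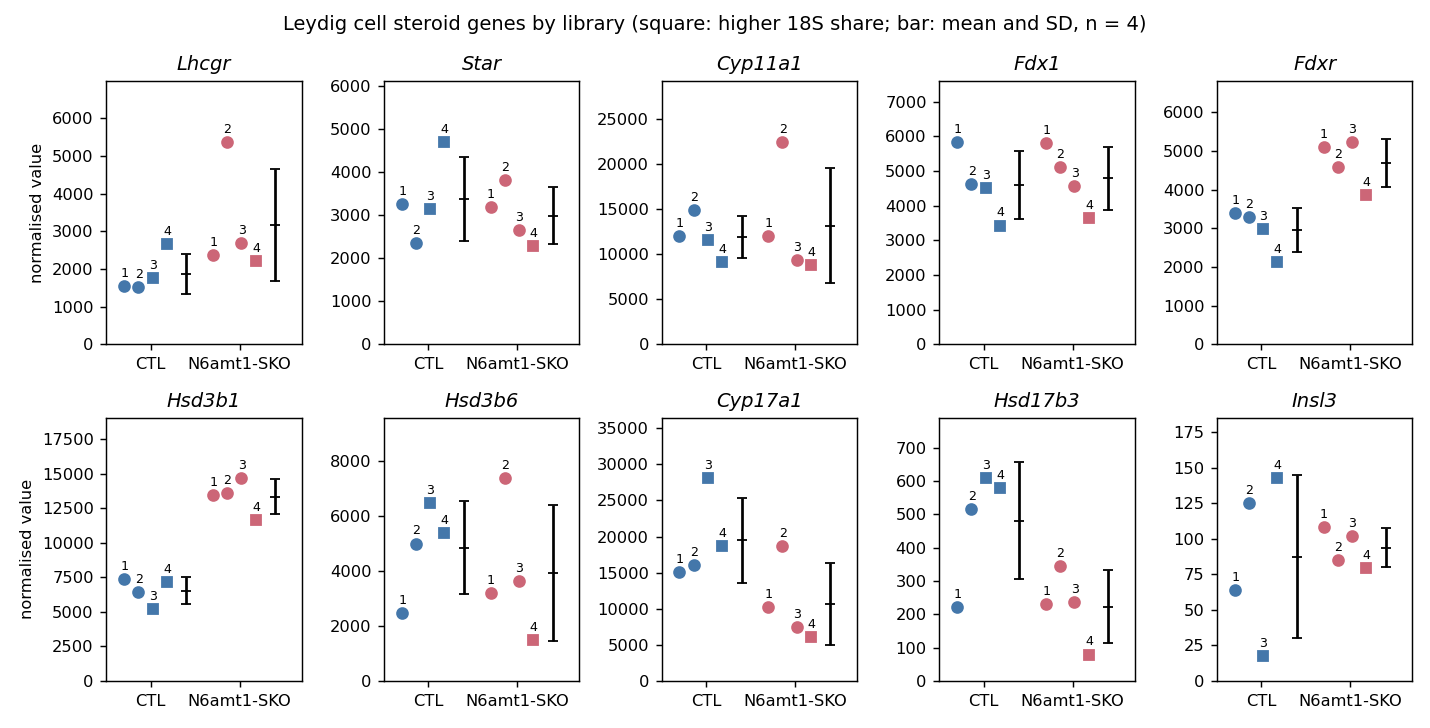
Normalised value (linear axis from 0) of each of the 10 genes in CTL 1 to 4 (blue) and SKO 1 to 4 (red), with the library number above each point, squares for the 3 libraries of higher 18S share and bars for the mean and SD (n = 4). Only Hsd3b1 and Fdxr have all 4 SKO libraries above all 4 CTL libraries, and SKO 4 is the lowest SKO library in each panel.

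The plot of values by library shows a pattern that runs across genes within the SKO group. SKO 4 was the lowest SKO library for all 10 genes, and SKO 2 was the highest for 6 of them: Lhcgr, Star, Cyp11a1, Hsd3b6, Cyp17a1 and Hsd17b3. Summed over the 10 genes, the normalised values were 51349, 54764, 64254 and 54029 in CTL and 55730, 81430, 50581 and 40296 in SKO libraries. The sum of SKO 2 was above, and the sums of SKO 3 and SKO 4 below, every CTL sum. The low place of SKO 4 was not particular to the 10 genes. In the lists described below, SKO 4 had the lowest SKO sum for every related list. The same held for Sertoli, peritubular myoid, macrophage, endothelial and adrenal cortex markers, while SKO 2 was lowest for germ cell and heart muscle markers. How often SKO 4 was lowest, or SKO 2 highest, over all genes was not computed. The counts of 10 and 6 genes thus have no background beside them, and the sums weigh abundant genes most. SKO 4 was also the library with the fewest reads and the largest shares of 18S and mitochondrial RNA; the part of these in the pattern was not tested.

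**Figure D2:**
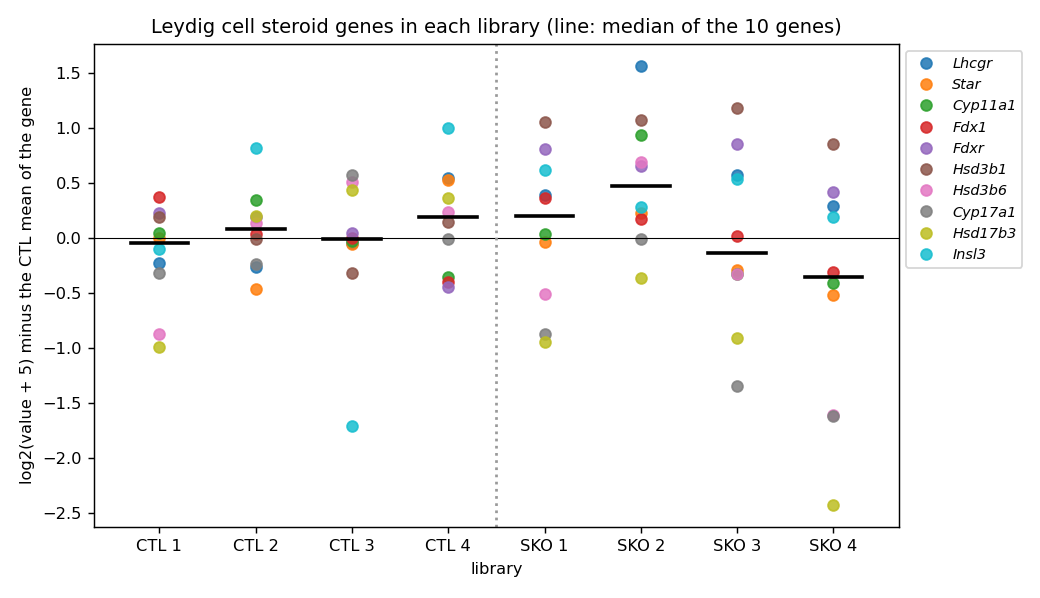
Log2(value + 5) of each gene minus its mean over the CTL libraries, by library, with a line at the median of the 10 genes. Hsd3b1, Fdxr, Lhcgr and Insl3 lie above 0 in all 4 SKO libraries, Hsd17b3 and Cyp17a1 lie below 0 in all 4 (Cyp17a1 only just in SKO 2), and the medians of the SKO libraries run from above to below the CTL medians.

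By the measure of likeness used here, the Pearson correlation over the 8 libraries with the mean standardised log2 value of the 10 genes, the 5 most similar genes of the table were Man2b1 (0.963), Htra1 (0.951), Adgre5 (0.944), Fn1 (0.943) and Bcat1 (0.941). Htra1, a secreted serine protease, measured 2854, 6351, 3361 and 1506 in SKO 1 to 4, with CTL libraries at 2103 to 3103. Fn1, fibronectin of the extracellular matrix, measured 4733, 7798, 4826 and 2810 in the same libraries. All 5 genes were highest in SKO 2 and lowest in SKO 4 of the 8 libraries. The mean that they were chosen to follow was also highest in SKO 2 (0.93) and lowest in SKO 4 (-0.81), so the choice favours such genes. The likeness is a description over 8 points, which share each library's depth and RNA.

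Within a library, the ratio of 2 genes does not depend on the scaling. Of the 45 pairs of members, 12 (26.7%) had ratios that did not overlap between CTL and SKO libraries, beside 21.6% of all gene pairs tested, so the count is near the background. The pairs named next were chosen after their values were seen. Cyp11a1 over Cyp17a1, successive P450 enzymes of the pathway, was 0.796, 0.930, 0.410 and 0.486 in CTL and 1.16, 1.20, 1.26 and 1.44 in SKO libraries. SKO 2 was high for both genes, and its place with the other SKO libraries in this ratio follows from choosing a pair without overlap. Hsd3b1 over Cyp17a1 was 0.487, 0.403, 0.185 and 0.381 in CTL and 1.31, 0.727, 1.98 and 1.90 in SKO libraries, again without overlap. Fdx1 over Fdxr was 1.40 to 1.73 in CTL and 0.875 to 1.14 in SKO libraries. Hsd3b6 over Hsd17b3, the Leydig cell dehydrogenases of the middle and last steps, was 9.29 to 11.2 in CTL and 13.9 to 21.3 in SKO libraries, although neither gene passed the test on its own. Cyp17a1 over Hsd17b3 overlapped, with 30.9 to 68.0 in CTL and 31.5 to 77.3 in SKO libraries.

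**Figure D3:**
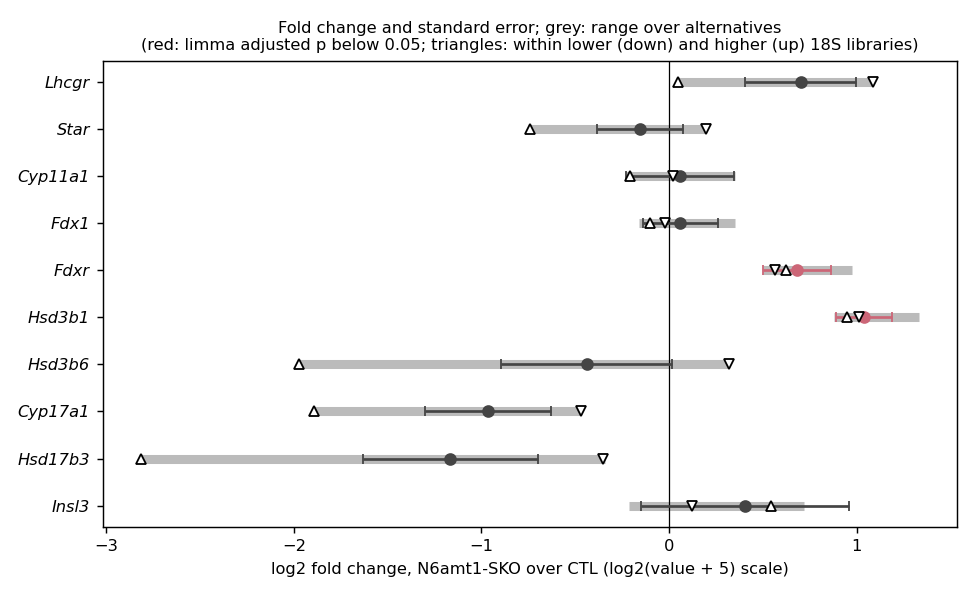
Log2 difference of SKO over CTL for each gene (point) with its standard error (black or red bar), the range over the other settings (grey bar) and the values within libraries of lower (down triangle) and higher (up triangle) 18S share; red marks a limma adjusted p below 0.05. Hsd3b1, Fdxr and Lhcgr stay above 0 throughout, Cyp17a1 and Hsd17b3 stay below 0 throughout, and Star, Cyp11a1, Fdx1, Hsd3b6 and Insl3 have ranges that cross 0.

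The rest of the pathway was read from 8 lists of related genes, in which 117 of 142 listed genes were tested, 29 rose and 4 fell, with a median log2 difference of 0.41. Counts are set beside those of all genes (11.9% risen, 7.93% fallen), and no set test was run. In luteinising hormone signalling and protein kinase A, 4 of 19 genes rose and 1 fell. Gnas, the stimulatory G protein that couples LHCGR to adenylyl cyclase, rose by 0.84 (limma adjusted p = 0.0134) from 966 ± 151 to 1719 ± 129. Pde8a, a cyclic AMP phosphodiesterase that restrains steroid output in Leydig cells, fell by 0.85 (limma adjusted p = 0.0190). Pde8b, its paralog and named after its value was seen, rose by 0.68 (limma adjusted p = 0.0461). Arrb2, an arrestin that desensitises receptors, rose by 0.72.

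Among transcription factors of steroidogenic cells, 7 of 16 genes rose and 1 fell. Tcf21 rose by 1.07 and Cebpb by 1.01, while Zfpm2, the cofactor of GATA4, fell by 0.60. Nr5a1 and Gata4, regulators of many steroid genes that are also made by Sertoli cells and were named after their values were seen, rose by 0.65 and 0.66 (limma adjusted p = 0.0159 and 0.0236). In cholesterol supply, 3 of 20 genes rose and the other 17 did not pass. Vdac1, a channel of the outer mitochondrial membrane, and Osbpl5, a lipid carrier, each rose by 0.70. Among electron donors of the P450 enzymes 1 of 6 genes rose, Cyb5r1, a cytochrome b5 reductase, by 0.80. Por, the reductase that serves CYP17A1 and named after its value was seen, differed by 0.15 and did not pass.

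Most of the other dehydrogenases and of the enzymes that convert the products did not pass the test. Of 10 other 3β- and 17β-hydroxysteroid dehydrogenase genes, 3 rose. Hsd17b1, which makes estradiol and is best known from the ovary, was at 27.4, 39.7, 17.6 and 44.5 in CTL and 145, 140, 157 and 56.2 in SKO libraries. Hsd17b1 rose by 1.76 (limma adjusted p = 0.0233). Hsd17b11 rose by 0.90. In conversion and breakdown, 2 of 10 genes rose and 1 fell. Cyp19a1, the aromatase that turns testosterone into estradiol, was at 527, 626, 589 and 610 in CTL and 347, 292, 271 and 233 in SKO libraries. Cyp19a1 fell by 1.04 (SE 0.18, limma adjusted p = 0.0123), with no overlap between the groups. Gstt1, a glutathione transferase, rose by 1.15.

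In INSL3 and androgen reception, 4 of 11 genes rose and 1 fell. Shbg, androgen-binding protein, rose by 1.51 and Rhox5, an androgen-responsive homeobox gene, by 1.00; both are Sertoli cell genes and stand in that marker list too. Ncoa4, a nuclear receptor coactivator, fell by 0.59. Of 26 other Leydig cell markers 5 rose and 21 did not pass, with a median of 0.49. Dlk1, known from fetal and immature Leydig cells, rose by 1.81 (limma adjusted p = 0.0134) from 334 ± 152 to 1137 ± 316, and Hhip, a hedgehog target, rose by 1.12. The counts of related genes depended on single libraries: 12 rose and 2 fell without CTL 3, 12 and 1 without SKO 1, 13 and 2 without SKO 2, and none passed without SKO 3, where the smallest limma adjusted p of the whole table was 0.0569.

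**Figure D4:**
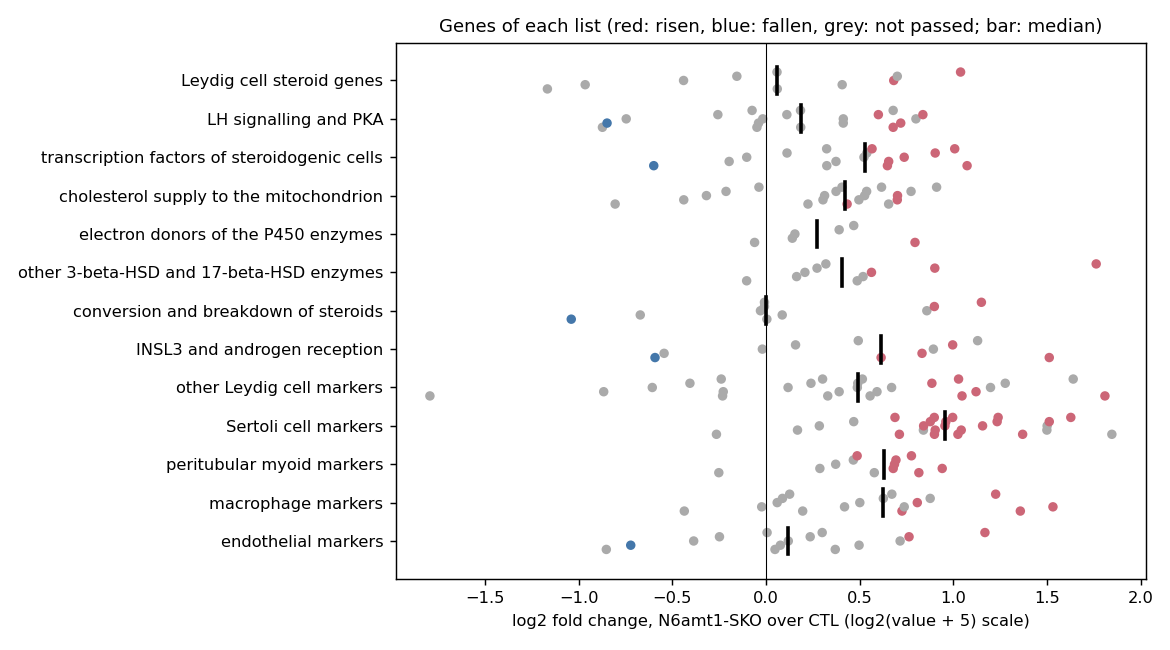
Log2 difference of SKO over CTL for each gene of the Leydig cell steroid list, the 8 related lists and 4 marker lists of other testis cells, with red for risen, blue for fallen, grey for not passed and a bar at each list's median. The steroid genes spread widely around a median of 0.06, while Sertoli cell markers have a median of 0.96.

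Markers of other cells moved between the same libraries. Of 26 Sertoli cell markers 18 rose, with a median log2 difference of 0.96, and their summed values were 146357 to 255116 in CTL and 266901 to 475111 in SKO libraries. Clu was the largest part of each of these sums, at 24239 to 100467 in CTL and 74721 to 215844 in SKO libraries. Clu overlapped between the groups and did not pass (limma adjusted p = 0.0651). Of 12 peritubular myoid markers 7 rose (median 0.63, sums of 34173 to 44070 in CTL and 52215 to 62222 in SKO, and in this order below). Of 17 macrophage markers 5 rose (median 0.63, sums of 18073 to 34537 and 24949 to 34594), and of 15 endothelial markers 2 rose and 1 fell (median 0.12, sums of 11177 to 15012 and 9927 to 16839). Of 16 germ cell markers 2 rose and 3 fell (median -0.11, sums of 449300 to 728481 and 392178 to 619885), so the markers of testis were present in both groups. Of 5 adrenal cortex markers, the genes of the other large steroid tissue, 1 rose (median 0.08, sums of 3798 to 4300 and 5326 to 7380). It was Mgarp, which made up most of each sum. Mgarp was at 3494 ± 208 in CTL and 5878 ± 753 in SKO libraries (SD, n = 4 each, limma adjusted p = 0.0134). Mrap and Akr1b7 did not pass, nor did the defining genes Cyp11b2 and Cyp21a1, which were low. Cyp11b2 was at 29.2 ± 5.83 in CTL and 44.6 ± 48.8 in SKO libraries. Cyp21a1 was at 66.3 ± 34.6 and 78.4 ± 68.9 (SD, n = 4 each). Cyp11b1 and Mc2r were listed but were not among the tested genes. The part of these cell types in the values of Hsd3b1, Fdxr and the related genes was not tested.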

How the data were processed

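RNA was taken from testis with TRIzol and libraries were made with a NEBNext Ultra kit, per the labels' protocols, which also name heart ventricles. The submitters' processing notes list CASAVA, fastp, HISAT2 2.0.5, featureCounts 1.5.0-p3 and the mm10 build. The deposited values, treated as a score, are whole numbers: in 6 libraries 100.0% of values up to 1000 were rounded multiples of 1 factor per library (1.4703 to 2.3221), where 43.1% to 68.0% would fit by chance, so they are scaled counts and no count model was used. No source used here says how the authors set the factors. From these, TMM factors (trims of 30% and 5%) were computed in R 4.3.3, a gene needed a value of 25 or more in 4 or more libraries, and limma 3.58.1 was fitted to log2(value + 5) with a mean trend, two-sided, with Benjamini-Hochberg adjustment over 17066 genes; the procedure was tested on simulated data. Adjusted p-values in the report are from limma. The members and lists were chosen with earlier results of these data known. Genes named beyond the members are N6amt1, up to 2 risen and 2 fallen genes with the largest changes per related list, and the 5 most similar genes; others are marked as chosen after their values were seen, and some items are not reported here. Alternatives changed the scaling, the constant, the filter, the variance model, the libraries used and the 18S term. No pair of libraries agreed within sampling noise (smallest chi-square per gene 36.3), and 204 rows of the table were identical to another, none of them a member. Gene models were from GENCODE M21, and 8 members had an entry among the RefSeq promoter windows.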

Additional observations from a re-analysis of the deposited data

Results flagged for a closer look

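Of 22 groups checked, the 10 steroid genes and N6amt1 in each of CTL and SKO, 1 held a library far from the others on the linear scale. Lhcgr in SKO 2 was at 5375, beside 2373, 2696 and 2215 in the other SKO libraries, and its gap to the nearest of them was 0.848 of the group's range on the linear scale of the normalised values, above Dixon's critical value for 4 samples. The outcome depended on the scale: on log2(value + 5) the ratio of Lhcgr in SKO 2 was 0.779, below that value, and Hsd17b3 in CTL 1, at 0.764 on the linear scale, was at 0.838, above it. Chance alone gives about 1 such group in 20.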

How the results depend on the processing

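Hsd3b1 passed in 20 of 22 settings and Fdxr in 17. The settings include the libraries of higher 18S share alone, where a single SKO library gives no usable test. The counts of that setting are listed below only to complete the settings and are not read as a result. All tested genes had 2038 risen and 1354 fallen; risen and fallen were 4885 and 456 with library totals as the scaling, 5320 and 4700 with weights per library, 3194 and 2283 in libraries of lower 18S share, and 51 and 287 in those of higher share. Fallen genes numbered 2210 with the 18S set as a covariate and 2322 without CTL 1 and CTL 2, an alternative chosen after seeing the data. Leaving out 1 library gave 0 to 2455 risen and 0 to 1526 fallen genes, with none without SKO 3 (smallest limma adjusted p = 0.0569). Members that rose numbered 0 to 2 with 1 library left out. Members that fell numbered 1 with weights per library, 2 without CTL 1 and CTL 2, and 0 to 1 with 1 library left out. Of related genes, 61 rose and 2 fell with library totals, 70 and 15 with weights, and 53 and 8 in the lower 18S set. With the covariate 7 fell, and with 1 library left out 0 to 41 rose and 0 to 5 fell. The share of risen among called genes was 60.1%, and 49.2% with median-ratio factors. It was 91.5% with library totals, where the median of all genes was 0.33. Leaving out CTL 1 gave 50.1%, leaving out CTL 2 gave 48.2%, and leaving out both gave 43.6%. The cause of these shifts was not tested.

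Signs of log2 differences that did not pass turned in 20 cases. Star was 0.14 with library totals and 0.20 in the lower 18S set. Cyp11a1 was -0.0075 with median-ratio factors, -0.11 with weights, -0.063 with the covariate, -0.21 in the higher 18S set, and -0.0035, -0.09 and -0.23 without CTL 3, CTL 4 and SKO 2 (range over libraries left out -0.23 to 0.22). Hsd3b6 was 0.29 with weights and 0.32 in the lower 18S set, and Insl3 was -0.22 without CTL 3 (range -0.22 to 0.71). Fdx1 was -0.0060 with median-ratio factors, -0.16 with weights, -0.050 with the covariate, -0.019 and -0.10 in the lower and higher 18S sets, and -0.10 and -0.04 without CTL 4 and SKO 1 (range -0.10 to 0.18). N6amt1 was -0.018 without CTL 1 and CTL 2. Lhcgr passed with weights (0.96), library totals (0.99) and in the lower 18S set (1.09).

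Same-numbered CTL and SKO libraries had correlated deviations of 0.67, 0.01, 0.08 and 0.23, and not every library correlated best with its own number. SKO 1 correlated best with CTL 2 (0.71). These values cannot settle whether the numbers pair the libraries. With a replicate block, 2162 genes rose and 1701 fell, with 2 members risen and 0 fallen and 34 and 6 related genes. The filter of at least 500 gave no value for Hsd17b3 and Insl3. Depth limits Insl3 and Hsd17b3 most, at 10 to 353 reads in the libraries where reads could be recovered. For Insl3, how reads in the overlap with Jak3 were assigned is also unknown.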

Other observations

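The labels' protocol speaks of heart ventricles although the tissue label is testis, so a list of 13 heart muscle markers was read as well. Of the 7 tested, 2 rose, with a median log2 difference of 0.91. The summed values of the 7 were 2308 to 2938 in CTL and 4475 to 6949 in SKO libraries. The risen genes were the troponins Tnni3 (means of 1391 in CTL and 4041 in SKO) and Tnnt2 (403 and 816). Tnni3 was the largest part of the sum in every library. Myl7 (27.8 and 49.9) and Mybpc3 (36.5 and 72.0) were low. The source of these transcripts was not tested. Actc1, Nppa, Nppb, Myl2, Pln and Tnnc1 were listed but were not among the tested genes.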
